A study of Mus musculus with 2 samples.

Results

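The genes described here are the MHC class II genes and the invariant chain of the mouse, 7 genes in all, named as H2-Aa, H2-Ab1, H2-Eb1, H2-DMa, H2-DMb1, H2-DMb2 and Cd74. They were chosen by name, and all 7 are among the 11349 protein-coding gene rows of the deposited table. The table compares primary macrophages of the abdominal cavity that lack Trem2 (titled TREM-2-/-) with WT macrophages. Both groups received TGF-β1, a growth factor of wound repair and scarring, and both were sampled at 24 h, so no library without TGF-β1 enters the comparison. Each group is 1 library. The labels do not say how many mice gave cells to a library, and the strain appears only in the column name C57 of the WT library. The genotype field of the Trem2-/- sample reads knockdown, against the knockout of its title, which is followed here. Trem2 is a lipid-sensing receptor of macrophages, and the series asks which genes differ between macrophages with and without it, as background to kidney fibrosis.

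MHC class II molecules hold peptides from engulfed material at the cell surface for helper T cells to read. Each is a pair of an alpha and a beta chain, and H2-Aa with H2-Ab1 form the I-A molecule of the mouse, while H2-Eb1 encodes the beta chain of I-E. Cd74, the invariant chain, fills the groove of the newly made pair and escorts it to endosomes, where cathepsins cut it down. H2-DM, built from H2-DMa and an H2-DMb chain, then swaps the last piece of Cd74 for a peptide. Transcription of these genes depends on the co-activator Ciita, which docks on factors bound at a conserved pair of promoter elements, the X and the Y box. Macrophages carry little class II at rest and raise it after interferon-gamma, and TGF-β is known to restrain that response.

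The X and Y boxes are shown for the members with a promoter entry in the RefSeq table (GRCm38.p6), because these elements are what the class II genes have in common outside their coding parts. RefSeq held promoters for 5 of the 7 members, H2-Aa, H2-Eb1, H2-DMa, H2-DMb1 and H2-DMb2, and none for H2-Ab1 and Cd74. Each entry spans 250 bases before to 50 bases after a transcript start and was searched on both strands for ATTGG, the core of the Y box, for GNNACNNAT, a core of the X box, and for the X core followed by the Y core after a gap of 15 to 30 bases. In the 65-base stretches below, 5′ to 3′ on the strand of the gene, capitals mark the Y core and, where it matched, the X core.
H2-Eb1: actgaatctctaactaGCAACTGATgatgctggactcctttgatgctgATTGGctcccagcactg
H2-DMb1: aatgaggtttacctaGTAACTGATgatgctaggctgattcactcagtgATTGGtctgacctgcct
H2-DMb2: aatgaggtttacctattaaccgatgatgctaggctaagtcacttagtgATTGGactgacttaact
H2-Aa: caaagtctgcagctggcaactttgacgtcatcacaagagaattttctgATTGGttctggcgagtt

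The stretch of H2-Eb1 lies at chr17:34305760-34305824 on the + strand, that of H2-DMb1 at chr17:34153082-34153146 (+), that of H2-DMb2 at chr17:34145111-34145175 (+) and that of H2-Aa at chr17:34287855-34287919 (-). The pair was found in 2 of the 5 members, with a gap of 23 bases in H2-Eb1 and 24 bases in H2-DMb1. By comparison, the pair was in 0.390% of 32851 promoters, ATTGG alone in 37.4% and GNNACNNAT alone in 25.3%. The stretch of H2-DMb2 is a near copy of that of H2-DMb1, differing at 9 of 65 bases. Of these, G1T and T6C fall in the X core, counted from 1 at its 5′ end with the H2-DMb1 base first, and the first of them ends the match. H2-Aa held the Y core with no match to the X core as spelled here. The 2 promoter entries of H2-DMa, at chr17:34122582-34122881 and chr17:34125268-34125567, lie upstream of its start in the expression table, chr17:34135182. Neither held the pair, and the sequence at that start was not searched. The entry of H2-DMb2, at chr17:34144999-34145298, lies inside its listed locus, which starts at chr17:34143307. A match or its absence describes letters in these windows only.

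The targeted gene was looked at first. Trem2 (chr17:48346401-48354147, mm10) was at 13.7 FPKM in the knockout library and 135 FPKM in the WT library, 9.91-fold lower in the knockout, and its adaptor Tyrobp at 1194 and 1021 FPKM, knockout first. The labels do not say which part of Trem2 was deleted. FPKM are fragment counts scaled for gene length and library size. Depth was read from the steps between low values, at about 12.4 M fragments in the knockout library and 13.5 M in the WT library. All counts of fragments and all intervals below are estimates from that depth. The intervals are exact 95% intervals that cover counting error only. Because a group is 1 library, differences have no replicate check and no test across samples was made, and genes are picked out by size at 2-fold or more on the log2(FPKM + 1) scale. In such bulk RNA, a change in the share of class II-bearing cells and a change in class II RNA per cell cannot be told apart.

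All 7 members had a higher value in the knockout library than in WT, and for 6 of 7 the difference was 2-fold or more. The background was counted over the 9962 genes that averaged 1 FPKM or more. Of these, 31.8% had a higher value in the knockout library at any size, 3.48% were higher by 2-fold or more and 13.7% lower by 2-fold or more. With the median ratio of all genes set to 1, these shares became 7.46% and 8.17%, and the same number of members, 6 of 7, was past 2-fold. That scaling moves the median of all genes by 0.26 on the log2 scale. The median log2 fold change of the members was 3.57, beside -0.31 for all 9962 genes. The members summed to 632 FPKM in the knockout library, against 74.0 FPKM in WT, which is 0.187% and 0.0245% of all FPKM listed for the library.

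**Figure D1:**
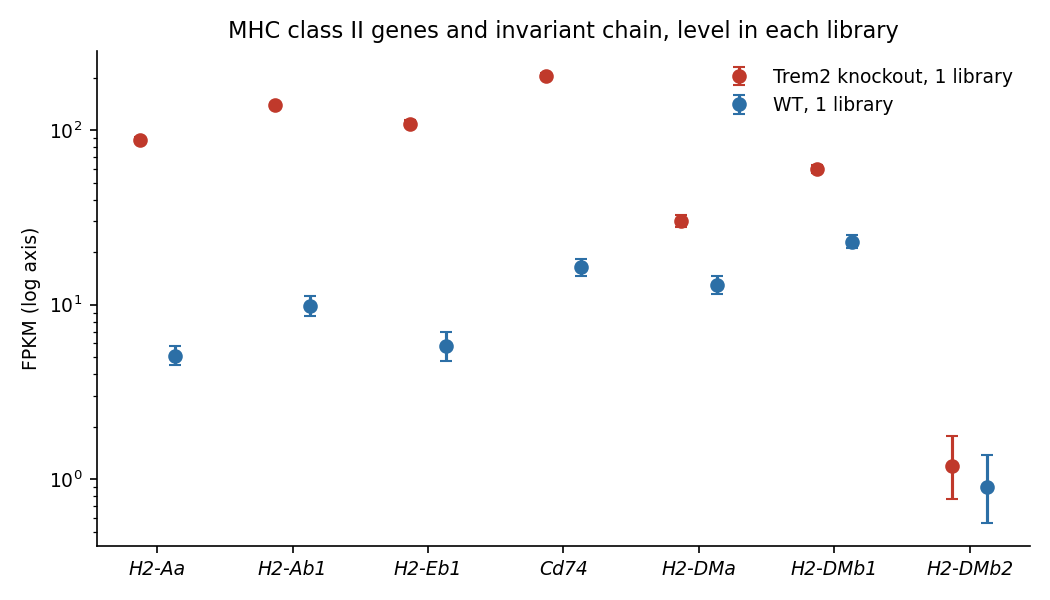
FPKM on a log axis of each member in the Trem2 knockout library (left point) and the WT library (right point), 1 library each; bars are 95% counting intervals. H2-Aa, H2-Ab1, H2-Eb1 and Cd74 lie between 88.3 and 205 FPKM in the knockout library and between 5.11 and 16.4 FPKM in WT, H2-DMa and H2-DMb1 differ less, and the intervals of H2-DMb2 overlap.

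The classical chains, which present the peptide, stood furthest apart. H2-Eb1 (ENSMUSG00000060586.10, chr17:34305877-34316199, +) was at 109 FPKM in the knockout library and 5.81 FPKM in WT, about 1905 and 111 fragments. That is 18.7-fold higher (interval 15.4 to 22.8), and the 9th highest log2 fold change of the 9962 genes. H2-Ea, the gene of the I-E alpha chain, and H2-Ea-ps were looked for and are not among the listed genes. The values of H2-Eb1 thus do not show whether an I-E molecule was made. H2-Aa (ENSMUSG00000036594.14, chr17:34282744-34287827, -), the alpha chain of I-A, was at 88.3 FPKM in the knockout library and 5.11 FPKM in WT, 17.3-fold higher (interval 15.2 to 19.7). H2-Ab1 (ENSMUSG00000073421.5, chr17:34263209-34269418, +), its beta partner, was at 139 FPKM in the knockout library and 9.85 FPKM in WT, 14.1-fold higher (interval 12.3 to 16.3). The intervals of these 3 ratios overlap one another. Such overlap does not show that the folds are equal, and a difference between them was not tested. The ratio of H2-Ab1 to H2-Aa FPKM was 1.57 in the knockout library and 1.93 in WT. Both I-A chains were thus higher in the knockout library, by folds whose intervals share values from 15.2 to 16.3.

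Cd74 (ENSMUSG00000024610.14), the chaperone of these chains, lies apart from them at chr18:60803848-60812646 (+). It was at 205 FPKM in the knockout library and 16.4 FPKM in WT, about 3593 and 311 fragments. That is 12.5-fold higher (interval 11.2 to 14.1), and the interval lies below those of H2-Eb1 and H2-Aa and overlaps that of H2-Ab1. The summed FPKM of the 3 classical chains was 1.64 times that of Cd74 in the knockout library and 1.27 times in WT. Cd74 was above each single classical chain in level in either library. By log2 fold change, H2-Aa ranked 10th, H2-Ab1 11th and Cd74 13th among the 9962 genes.

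The H2-DM genes, whose product edits the peptide, differed less. H2-DMa (ENSMUSG00000037649.9, chr17:34135182-34139101, +), the alpha chain, was at 30.1 FPKM in the knockout library and 13.0 FPKM in WT, 2.32-fold higher (interval 2.01 to 2.68). H2-DMb1 (ENSMUSG00000079547.3, chr17:34153072-34160230, +), the main beta chain by level here, was at 59.9 FPKM in the knockout library and 23.0 FPKM in WT, 2.61-fold higher (interval 2.35 to 2.89). These 2 intervals overlap each other and lie below those of the classical chains and Cd74. The call of H2-DMa is close to the threshold, since its log2 fold change of 1.15 became 0.99 when both libraries were rescaled to the same summed FPKM. By log2 fold change H2-DMb1 stood at rank 179 and H2-DMa at rank 257. H2-DMa and H2-DMb1 together made up 0.268 times the FPKM of the 3 classical chains in the knockout library, and 1.73 times in WT.

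H2-DMb2 (ENSMUSG00000037548.14, chr17:34143307-34151553, +), the second H2-DM beta chain gene, was the exception. It was at 1.19 FPKM in the knockout library and 0.904 FPKM in WT, about 25 and 21 fragments, a ratio of 1.32 with an interval of 0.695 to 2.43 that includes no difference and also a 2-fold one. The gene sits between H2-DMa and H2-DMb1 and resembles H2-DMb1 in sequence. Of all 50-base windows of its reference transcript, 26.8% occur unchanged in that of H2-DMb1, and of all 150-base windows 5.65%. Reads from such stretches can be assigned to either copy, so the sum is the safer value, at 61.1 FPKM in the knockout library and 23.9 FPKM in WT, and H2-DMb1 makes up most of it in either library.

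The order of the members by level was not the same in the libraries. In the knockout library it ran, from high to low, Cd74, H2-Ab1, H2-Eb1, H2-Aa, H2-DMb1, H2-DMa and H2-DMb2. None of the neighbours in that order had overlapping counting intervals. In WT it ran H2-DMb1, Cd74, H2-DMa, H2-Ab1, H2-Eb1, H2-Aa and H2-DMb2, where H2-Eb1 (4.78 to 7.002 FPKM) and H2-Aa (4.50 to 5.77 FPKM) overlapped. Among all listed genes, Cd74 was 216th by FPKM in the knockout library and 2734th in WT. H2-Aa was 531st in the knockout library and 6203rd in WT, where 45.3% of genes were at or below it. Levels of different genes depend on the length used for each, the merged exons of all its transcripts, estimated at 3748 bases for H2-Aa and at 1410 to 1710 bases for the other members. The ratio between libraries does not depend on it.

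**Figure D2:**
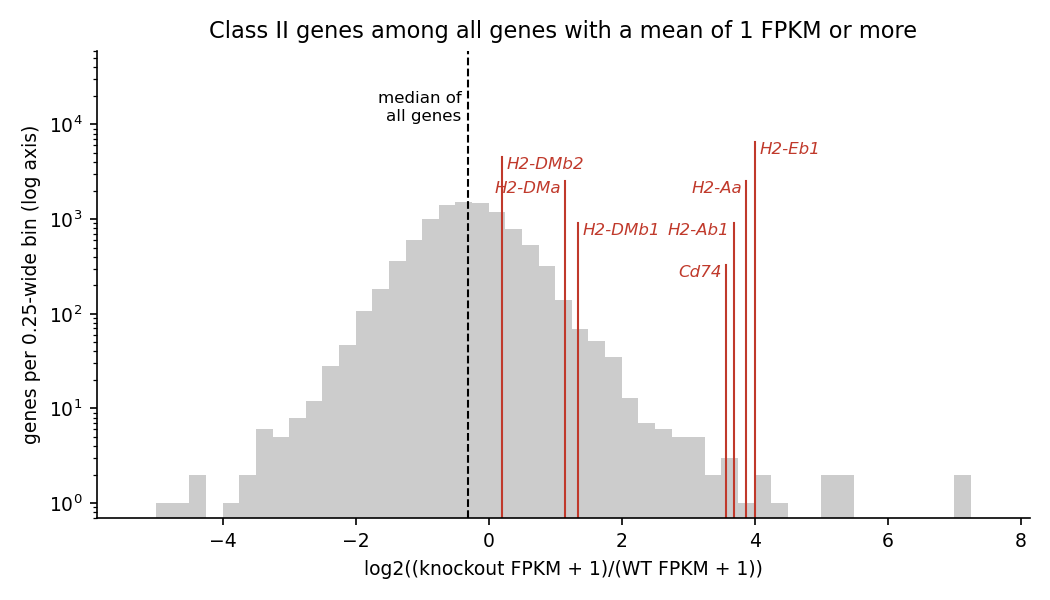
Number of genes (log axis) by log2((knockout FPKM + 1)/(WT FPKM + 1)) for the 9962 genes averaging 1 FPKM or more; red lines mark the 7 members and the dashed line the median of all genes at -0.31. Cd74, H2-Ab1, H2-Aa and H2-Eb1 lie between 3.57 and 4.01 in the far right tail, H2-DMa and H2-DMb1 at 1.15 and 1.35, and H2-DMb2 at 0.20 within the bulk.

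The 6 members on chromosome 17 span 181 kb and are interleaved with other genes, which allows a look at their neighbours. Within 100 kb of the outermost members, 6 other genes were listed, and 1 of them, Tap1, was past 2-fold on the log2(FPKM + 1) scale. Over all 9962 genes, 3.48% were higher by 2-fold or more, and a list of 6 is too short to set against that share. Tap1, a subunit of the transporter that feeds peptides to class I molecules, was at 27.9 FPKM in the knockout library and 7.402 FPKM in WT, 3.77-fold higher (interval 3.43 to 4.16). Its partner subunit Tap2 was at 28.5 FPKM in the knockout library and 19.9 FPKM in WT. The immunoproteasome subunits Psmb8 and Psmb9, which lie between Tap2 and H2-DMb1, were at 53.5 and 5.59 FPKM in the knockout library, against 50.02 and 4.56 FPKM in WT. Brd2, a bromodomain protein on the other side of H2-DMa, was at 32.1 FPKM in the knockout library and 26.9 FPKM in WT. H2-Oa, the alpha chain of the H2-DM inhibitor H2-O, had only about 14 fragments in the knockout library and 3 in WT (0.854 and 0.168 FPKM), a ratio of 5.09 with an interval of 1.41 to 27.5. It averaged 0.511 FPKM, below the 1 FPKM required for the background, and its log2 fold change on the log2(FPKM + 1) scale was 0.67. The median log2 fold change of the 6 was 0.37. Of these 6 genes, H2-Oa and Brd2 lie outside the span of the members. All but H2-Oa, which has too few fragments to be placed, stood nearer to the median of all genes than H2-Ab1, H2-Aa and H2-Eb1 did. Tap1, at 1.78, was however above the members H2-DMa (1.15) and H2-DMb1 (1.35). This is a description of 12 genes with no test.

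**Figure D3:**
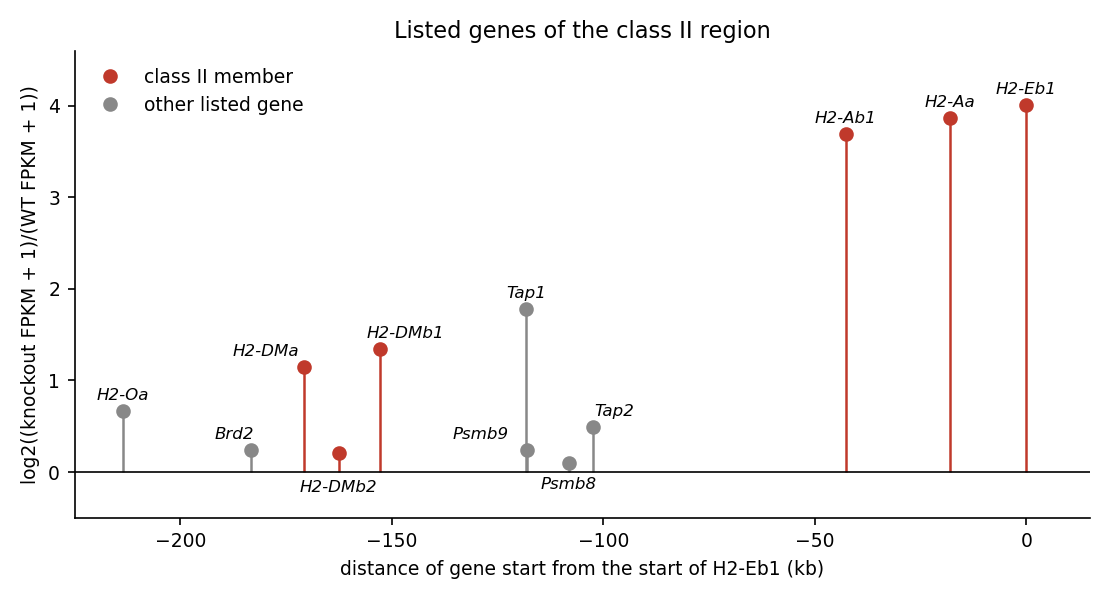
log2((knockout FPKM + 1)/(WT FPKM + 1)) of the 12 listed genes of the class II region against the distance of their starts from that of H2-Eb1, in kb; members are red and other genes grey. H2-Ab1, H2-Aa and H2-Eb1 reach 3.69 to 4.01, whereas Psmb8, Psmb9, Brd2 and Tap2 stay between 0.10 and 0.50. Between these groups the split is not clean, with Tap1 at 1.78 and H2-Oa at 0.67 beside the members H2-DMb1 at 1.35, H2-DMa at 1.15 and H2-DMb2 at 0.20.

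Of the factors that act at class II promoters, none of those listed was past 2-fold upward. Ciita is not among the listed genes, which all reached at least 0.501 FPKM in their higher library, and was not analysed here. Of the 10 other factors, 0 were at least 2-fold higher and 3 at least 2-fold lower (2 with the median ratio of all genes set to 1), with a median log2 fold change of -0.62. Over all 9962 genes, 3.48% were higher and 13.7% lower by 2-fold or more. Few or no calls are thus expected in a list this short. The subunits of RFX, which binds the X box, were close in the libraries, with Rfx5 at 1.39 FPKM in the knockout library and 1.01 FPKM in WT, Rfxank at 2.22 and 3.01 FPKM, and Rfxap at 6.57 and 7.30 FPKM, in the same order. Of the NF-Y subunits, which bind the Y box, Nfyc was at 1.34 FPKM in the knockout library and 9.63 FPKM in WT, 7.16-fold lower in the knockout, while Nfya was at 8.91 and 12.6 FPKM and Nfyb at 4.71 and 5.42 FPKM, knockout first. Creb1, which binds the part of the X box nearer the Y box, was at 0.589 FPKM in the knockout library and 4.70 FPKM in WT. The acetyltransferase Kat2b, a partner of Ciita, was at 2.45 FPKM in the knockout library and 6.36 FPKM in WT.

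Interferon-gamma signalling, the main known inducer of class II, had 0 of 9 genes past 2-fold in either direction, with a median of 0.16. With 3.48% of all genes higher and 13.7% lower, 9 genes are too few for a count of 0 to stand out. Irf1, a transcription factor that drives Ciita, was at 19.6 FPKM in the knockout library and 12.8 FPKM in WT (ratio 1.52, interval 1.38 to 1.68). The receptor chains Ifngr1 and Ifngr2 were at 34.4 and 58.9 FPKM in the knockout library, against 47.4 and 52.5 FPKM in WT. The genes of this list were thus on both sides of the median of all genes.

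Processing of the invariant chain and of antigen had 0 of 10 genes at least 2-fold higher and 2 at least 2-fold lower, with a median of 0.18. These counts do not stand out beside the 3.48% higher and 13.7% lower over all genes. Ctss, the cathepsin that makes the last cuts in Cd74, was at 7432 FPKM in the knockout library and 5364 FPKM in WT, a ratio of 1.39. Ctsh, an aminopeptidase of the same family, was at 164 FPKM in the knockout library and 83.8 FPKM in WT, a log2 fold change of 0.96 that passed 2-fold only with the median ratio of all genes set to 1. Ctsl, which trims Cd74 in thymic epithelium, was at 289 FPKM in the knockout library and 609 FPKM in WT, and Ctsc at 24.1 FPKM in the knockout library and 50.05 FPKM in WT. These 2 were within 2-fold under that scaling. Lgmn, an endosomal protease that opens antigens, was at 831 FPKM in the knockout library and 634 FPKM in WT.

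Of class II turnover, March1, the ubiquitin ligase that removes class II from the surface, was at 3.22 FPKM in the knockout library and 5.26 FPKM in WT. Cd83, which opposes it, was at 28.3 FPKM in the knockout library and 23.8 FPKM in WT, and 0 of 3 genes of this list passed 2-fold. Among costimulatory genes, 1 of 5 was at least 2-fold higher and 1 at least 2-fold lower. Lists of 3 to 5 genes are too short to set against the 3.48% higher and 13.7% lower over all genes. Cd274 (PD-L1, a brake on T cells) was at 243 FPKM in the knockout library and 70.7 FPKM in WT, 3.44-fold higher (interval 3.31 to 3.57). Cd48, an adhesion ligand, was at 23.5 FPKM in the knockout library and 108 FPKM in WT. Cd80 and Cd86, which give T cells their second signal, were at 6.26 and 3.005 FPKM in the knockout library, against 6.22 and 5.62 FPKM in WT. Of the partners of Cd74 as a surface receptor, 0 of 4 passed 2-fold. Its ligand Mif was at 358 FPKM in the knockout library and 227 FPKM in WT, and its co-receptor Cd44 at 29.03 and 29.99 FPKM, knockout first.

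**Figure D4:**
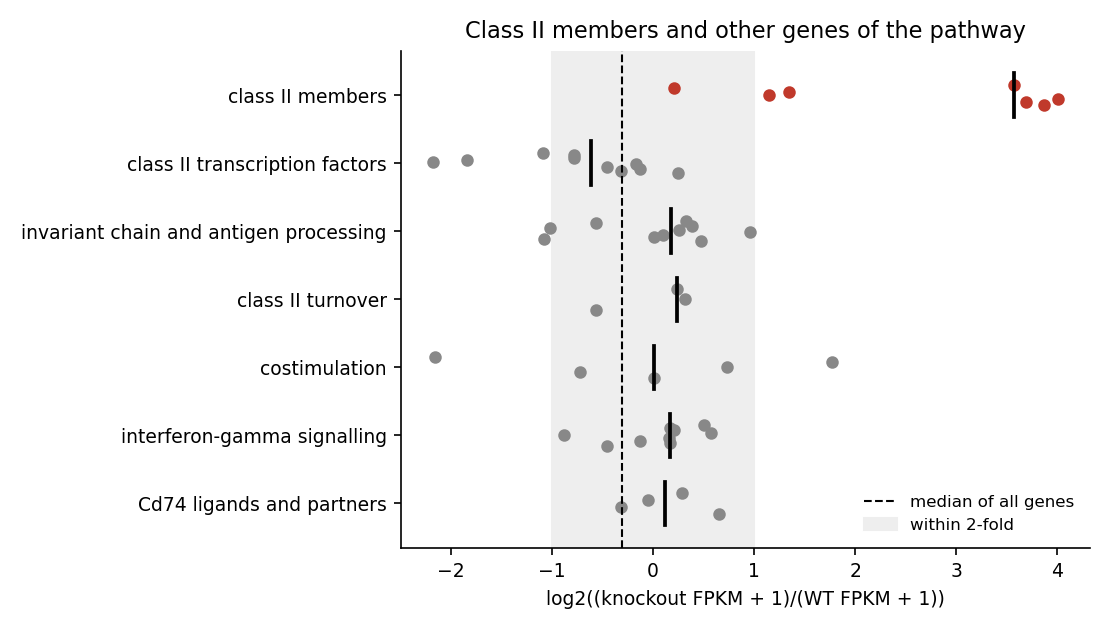
log2((knockout FPKM + 1)/(WT FPKM + 1)) of each gene averaging 1 FPKM or more (points, spread vertically for visibility), by list; bars are list medians, the dashed line is the median of all genes and the grey band is within 2-fold. The members' median is at 3.57, and the medians of the other lists lie between -0.62 and 0.24.

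Among the 10 other genes averaging 10 FPKM or more whose log2 fold change was nearest the members' median, the only likeness that 2 libraries allow, were Orm1, Myl9, Ctgf, Cyr61, Dbp, Cfb, Ccl5, Psrc1 and Crabp2. The nearest was Orm1, an acute-phase protein, at 73.0 FPKM in the knockout library and 4.97 FPKM in WT, a log2 fold change of 3.63. Cfb, a complement protease whose gene lies at chr17:34856374-34862518, was at 65.3 FPKM in the knockout library and 8.09 FPKM in WT, a log2 fold change of 2.87.

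Markers of the cells that could carry class II were set beside these values. A marker that is not listed has no value here, which does not show that its cells were absent. Every listed gene reached at least 0.501 FPKM in the higher of the 2 libraries. An unlisted gene may have been below that level in both, or left out for another reason, which was not tested. The macrophage markers were all listed, 9 of 9, and summed to 12038 FPKM in the knockout library and 9624 FPKM in WT. Most of this sum was Lyz2 (lysozyme), while the median log2 fold change of the 9 was -0.62. Csf1r, the growth factor receptor of the lineage, was at 53.1 and 46.1 FPKM and Adgre1 (F4/80) at 148 and 133 FPKM, knockout first. Spi1 (PU.1), the master transcription factor of the lineage, was at 39.7 FPKM in the knockout library and 70.4 FPKM in WT, Cd14 at 50.1 and 77.8 FPKM, and Mertk at 8.18 and 16.6 FPKM, in the same order. None of the 9 was higher by 2-fold, beside 3.48% of all genes. Fcgr1 (14.4 FPKM in the knockout library, 55.9 FPKM in WT) and Itgam (41.2 FPKM in the knockout library, 92.7 FPKM in WT) were lower by 2-fold or more, beside 13.7% of all genes. For Itgam this held only before the median ratio of all genes was set to 1. Of 12 B cell markers, 3 were listed, with a sum of 10.6 FPKM in the knockout library and 9.59 FPKM in WT, and the defining genes Ms4a1 and Pax5 were not among the listed genes. Of 13 dendritic cell markers, 5 were listed, with a sum of 43.9 FPKM in the knockout library and 24.7 FPKM in WT. Flt3, Zbtb46, Xcr1 and Clec9a were not among the listed genes, and Itgax (CD11c), which macrophages also express, was at 27.1 FPKM in the knockout library and 10.02 FPKM in WT and made up most of the difference between the sums. Fscn1 was at 11.8 FPKM in the knockout library and 10.5 FPKM in WT, and Batf3, a dendritic cell transcription factor, at 0.666 and 1.72 FPKM in the same order.

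Of 10 markers of large peritoneal macrophages, the resident class II-low kind, 6 were listed, and 4 of them averaged 1 FPKM or more. Of these 4, 3 were lower and 1 higher by 2-fold or more, beside 13.7% lower and 3.48% higher over all genes. Gata6, the transcription factor that defines large peritoneal macrophages, was at 2.67 FPKM in the knockout library and 14.0 FPKM in WT. F10 was at 89.7 FPKM in the knockout library and 29.0 FPKM in WT. Of 7 markers of small peritoneal macrophages, the class II-high kind, 2 were listed, Irf4 at 0.878 FPKM in the knockout library and 0.325 FPKM in WT, and Mrc1 at 6.10 and 33.7 FPKM in the same order. T cell markers (2 of 8 listed) summed to 5.57 FPKM in the knockout library and 1.18 FPKM in WT. Most of that difference was Thy1, which stromal cells also express, at 3.80 FPKM in the knockout library and 0.336 FPKM in WT, and the defining genes Cd3d, Cd3e, Cd3g and Trac were not among the listed genes. Fibroblast markers (7 of 7) summed to 404 FPKM in the knockout library and 237 FPKM in WT, with a median log2 fold change of 0.17. Col1a1, a collagen chain, was at 171 FPKM in the knockout library and 48.1 FPKM in WT, whereas Pdgfra, a growth factor receptor of fibroblasts, was at 5.9999 and 29.26 FPKM and Dcn at 48.9 and 71.4 FPKM, knockout first. Mesothelial markers (7 of 7) summed to 6.03 FPKM in the knockout library and 18.3 FPKM in WT. No listed marker was at 0 in either library. The part of these cell types in the class II values was not tested.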

How the data were processed

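RNA from 1 Trem2-/- and 1 WT library of abdominal cavity macrophages was, per the labels' protocols, made into strand-marked libraries for Illumina sequencing. The authors deposited FPKM per gene, per the file headers, and the submitters' processing notes name the build mm10. For aligner, quantifier and annotation, the entry is "not given in the sources used here".

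Fold changes are log2((knockout FPKM + 1)/(WT FPKM + 1)), which understate low genes, over genes averaging 1 FPKM or more. For 10 symbols with 2 IDs, the ID with the higher mean was used. Depth came from single-transcript genes (GENCODE M21, 9914 IDs matched with version). In 71.9% of 231 knockout values and 66.7% of 183 WT values, FPKM times length was a whole number of steps within 0.1 steps. Chance gives 20% for a depth fixed in advance. The depth used was the best fit to these same values, so the share by chance can be higher. For the fragment counts, 300 steps were taken as 1 fragment. The lengths of the members came from the 6 decimals of the authors' values, that of H2-Eb1 from annotated transcripts. Ratio intervals are Clopper-Pearson and intervals of levels are exact Poisson.

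Named genes are the members, Trem2, Tyrobp, genes of fixed pathway and marker lists, genes within 100 kb of the members and the 10 nearest by fold change. Members and lists were chosen with earlier results of these data known. The fold changes, ratio intervals and scalings were run on simulated counts with depths set in advance and known lengths. The estimates of depth and of the members' lengths were not tested in this way. Alternatives covered the pseudocount, the filter, the scaling and the threshold. The scripts ran on Python 3.11.15 with scipy 1.17.1, pandas 2.3.3, numpy 2.4.6 and matplotlib 3.10.9. A few genes of these lists are not reported here.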

Additional observations from a re-analysis of the deposited data

How the results depend on the processing

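The direction of all 7 members held under every alternative run, but few of these runs could have reversed it. Settings of pseudocount, filter and threshold could not, and the median of ratios and trimmed-mean scalings raise the knockout values. Only rescaling to the same summed FPKM, which multiplies the knockout values by 0.893, could have done so. H2-DMb2 is counted here although its counting interval includes no difference. For the 6 members other than H2-DMb2, 40 of 42 alternative values stayed past 2-fold, from 0.96 to 4.33 on the log2 scale, and H2-DMb2 stayed between 0.07 and 0.39. The filter settings are counted in these values, though they change only which genes are kept and could not move a member's value. The 2 values not past 2-fold were those of H2-DMa with a pseudocount of 5 FPKM (0.96) and after rescaling to the same summed FPKM (0.99), where 5 members passed 2-fold. At 4-fold, 4 members passed. The members' median of 3.57 moved to 3.21 with a pseudocount of 5 FPKM, and to 3.89 with either the median of ratios set to 1 or trimmed-mean scaling. Over all genes, 347 were past 2-fold upward and 1364 downward. These counts became 174 and 394 with a pseudocount of 5 FPKM, 743 and 814 with the median of ratios, 750 and 814 with the trimmed mean, 995 and 3254 at 1.5-fold, and 51 and 113 at 4-fold. The lower count was 2075 with a pseudocount of 0.1 FPKM and 746 with a mean of 5 FPKM or more, where H2-DMb2 is left out. No paired analysis was possible because a group of 1 has nothing to pair, and no replicate could be left out. Among the members, depth limits H2-DMb2 most.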
